A study of Mus musculus with 2 samples.

Results

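The forkhead (Fox) family of transcription factors was examined for DNA methylation in mouse C3H myotubes, the multinucleate muscle cells formed when C3H myoblasts differentiate in culture. Members were all autosomal protein-coding genes named Fox followed by a letter from a to s and a number, which gave 41 of 20807 genes. For 10 of them (Foxa1, Foxa2, Foxa3, Foxc1, Foxc2, Foxd3, Foxf1, Foxk1, Foxo1 and Foxo3) values are given in windows, bodies and islands, and Foxa2 is set against the rest of the family. Myotubes were transfected with a control small interfering RNA (siCon) or with an siRNA that targets H19, a long non-coding RNA (siH19), and genomic DNA was taken 48 h later. Methylation was read by reduced representation bisulfite sequencing after digestion with TaqαI, which cuts TCGA, and MspI, which cuts CCGG. Only stretches near these sites were covered. Each group had 1 library, so the tests compare 2 libraries and not 2 conditions, and differences between cultures cannot be told apart from the knockdown. Bisulfite sequencing of DNA gives no measure of the H19 transcript, so the knockdown was not checked here.

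All forkhead proteins bind DNA through a winged-helix domain. Foxa proteins are pioneer factors, able to open compact chromatin, and Foxa2 is needed for endoderm, liver and pancreas. Foxo proteins are kept out of the nucleus by insulin and Akt signalling, and in muscle they switch on genes for protein breakdown. In mammals the CpG islands at gene starts are mostly unmethylated and gene bodies mostly methylated, whereas islands of developmental factors can gain methylation in cultured cell lines.

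The siCon library held 5453019 cytosines with 104999613 reads in all and a median depth of 12 reads, and the siH19 library 5266846 cytosines with 106372792 reads and a median of 13. A cytosine was compared where both libraries had 5 reads or more and it lay outside the CCGG and TCGA sites, which left 1795680. The Fox genes held 6971 of these, at 3947 CpGs, with a median depth of 26 reads in each library. A Fox gene had between 12 and 505 of them, with a median of 149, and no cytosine belonged to more than 1 Fox gene. Regions needed at least 5 cytosines, which 38 windows within 1 kb of the gene start (TSS windows), 87 of 271 overlapping CpG islands in 40 genes, and 35 gene bodies beyond the window reached. The windows of Foxj3, Foxn1 and Foxq1, the islands of Foxn1, and the bodies of Foxe3, Foxf1, Foxh1, Foxi1, Foxi3 and Foxs1 were below this minimum.

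Stretches of the Foxa2 last-exon island are shown in the sense of the gene, 5′ to 3′, from GRCm38.p6. Capitals mark the CpGs with a compared cytosine, and all 3 stretches are coding sequence of the last exon of Foxa2. The first, chr2:148043997-148044163 on the minus strand, held the most compared cytosines of any restriction fragment in the island. The next, chr2:148044304-148044472, had the highest difference among fragments with at least 10 cytosines, and the last, chr2:148044648-148044727, had the lowest.
Foxa2 fragment with most cytosines: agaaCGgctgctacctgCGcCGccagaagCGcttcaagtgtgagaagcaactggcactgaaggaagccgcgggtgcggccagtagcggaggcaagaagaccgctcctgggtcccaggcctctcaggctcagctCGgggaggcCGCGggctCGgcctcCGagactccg
Foxa2 fragment with highest difference: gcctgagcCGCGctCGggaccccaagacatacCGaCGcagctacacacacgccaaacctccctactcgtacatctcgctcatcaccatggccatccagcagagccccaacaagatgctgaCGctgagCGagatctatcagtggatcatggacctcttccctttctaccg
Foxa2 fragment with lowest difference: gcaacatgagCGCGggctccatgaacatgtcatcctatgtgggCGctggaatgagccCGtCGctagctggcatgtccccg

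Upstream stretches show how far starts of the family differed. The stretches end at the annotated start and come from the RefSeq promoter table for GRCm38.p6, in which 26 of the 41 Fox genes had a row. For Foxa2 the stretch was chr2:148046970-148047219 on the minus strand, where only 2 of 6 CpGs were compared. For Foxk2, which works with Foxk1 as a repressor of autophagy genes, it was chr11:121259737-121259986 on the plus strand. For Foxo3 it was chr10:42276756-42276945 on the minus strand.
Foxa2 upstream: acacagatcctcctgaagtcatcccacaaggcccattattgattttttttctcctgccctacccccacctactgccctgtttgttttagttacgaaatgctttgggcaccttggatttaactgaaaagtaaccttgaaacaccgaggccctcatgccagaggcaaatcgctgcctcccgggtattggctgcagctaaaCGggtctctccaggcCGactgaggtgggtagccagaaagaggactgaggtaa
Foxk2 upstream: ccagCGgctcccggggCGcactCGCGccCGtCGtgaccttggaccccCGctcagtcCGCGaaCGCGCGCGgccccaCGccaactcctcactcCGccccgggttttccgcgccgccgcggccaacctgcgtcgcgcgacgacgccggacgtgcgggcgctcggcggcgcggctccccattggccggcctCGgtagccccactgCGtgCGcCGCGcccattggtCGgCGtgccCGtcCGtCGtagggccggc
Foxo3 upstream: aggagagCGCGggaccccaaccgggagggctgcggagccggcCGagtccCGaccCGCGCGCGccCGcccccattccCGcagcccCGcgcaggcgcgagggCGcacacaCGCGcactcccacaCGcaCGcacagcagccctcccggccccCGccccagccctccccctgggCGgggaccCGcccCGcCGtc
The 4 cytosines upstream of Foxa2 stood at 28.5% in siCon and 29.9% in siH19, with 124 and 90 reads. The 50 cytosines upstream of Foxk2 stood at 0.47% and 0.51%, and the 35 upstream of Foxo3 at 0.21% and 1.21%. The Foxa2 stretch was thus part methylated with few CpGs, and the other 2 stretches were close to unmethylated with many.

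The first question was how methylated the Fox genes were at their starts. A level is the methylated share of reads with each cytosine given the same weight in both libraries, so that a different spread of reads over a region does not move it. The median level of the 38 TSS windows was 13.6% in siCon, against 1.84% over the 13127 windows of all autosomal protein-coding genes. Of the Fox windows, 13 were under 5%, 9 between 5% and 20%, 12 between 20% and 50%, and 4 at 50% or above. Thus 42.1% of the Fox windows stood at 20% or more, against 18.6% of all windows. These shares were not tested against each other, and windows with fewer than 5 compared cytosines were outside the comparison in both sets.

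Foxr1, Foxd3 and Foxe1 had the highest windows. Foxr1 stood at 64.0% in siCon and 67.05% in siH19 over 20 cytosines. Foxd3, which maintains pluripotent and neural crest cells, stood at 59.3% and 59.1% over 94 cytosines. Foxe1, a thyroid factor, stood at 59.2% and 57.2%. In each of these genes the libraries lay close together, and both were far above the median of all windows.

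Foxm1, Foxk1 and Foxk2 had the lowest windows. Foxm1, which drives genes of cell division, stood at 0.45% in siCon and 1.45% in siH19 over 41 cytosines. Foxk1 stood at 0.49% and 0.32%, and Foxk2 at 0.51% and 0.62%. Foxo1, with 160 cytosines and 5357 and 5728 reads, stood at 1.63% and 1.81%. Foxo3, with 137 cytosines, stood at 0.66% and 1.13%. These starts were close to unmethylated in both libraries, as were those of Foxn3, Foxj2, Foxp1, Foxp4 and Foxn2, between 0.54% and 1.51% in siCon.

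Subfamilies spread widely at the start. The 3 Foxa windows ranged from 5.58% to 42.4%, with Foxa3 lowest, Foxa1 at 20.7% and Foxa2 highest. The 4 Foxd windows ranged from 8.17% to 59.3%, the 3 Foxp windows from 0.82% to 43.3%, the 3 Foxi windows from 12.5% to 35.0%, the 2 Foxj windows from 0.68% to 32.1%, and the 3 Foxn windows from 0.54% to 13.7%. The 2 Foxb windows ran from 13.6% to 43.0%, the 2 Foxe windows from 28.0% to 59.2%, and the 2 Foxl windows from 10.8% to 35.0%. Narrow ranges were found for the 2 Foxk windows, at 0.49% and 0.51%, the 3 Foxo windows, from 0.66% to 4.94%, and the 2 Foxc windows, at 3.15% for Foxc1 and 5.13% for Foxc2. Foxf2 stood at 2.97% and Foxf1, a factor of lung and gut mesenchyme, at 13.6%. Foxh1 stood at 56.8% and Foxs1 at 20.3%.

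CpG content of the window went only loosely with its level. The ratio of observed to expected CpGs ran from 0.25 in Foxi1 to 0.99 in Foxo1. Across the 38 windows its correlation with the siCon level was -0.35 by Spearman's rho and -0.28 by Pearson's r, given as a description because the windows share 1 library. Foxd3 and Foxk1 had like ratios, 0.86 and 0.78, and levels of 59.3% and 0.49%.

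Beyond the window the order changed. The median level of the 35 Fox bodies was 43.6%, against 59.5% over the 13571 bodies of all genes. The body was above the window in 25 of 32 Fox genes that had both, by over 10 points in 21, and was over 10 points below it in 1. The highest bodies with at least 10 cytosines were Foxd2 at 87.2%, Foxk1 at 83.3% and Foxd3 at 82.4%. The lowest were Foxc2, Foxj3 at 4.46% and Foxq1 at 7.20%. Foxc2, a factor of lymphatic and vascular development, stood at 0.35% in siCon and 0.57% in siH19 over 103 cytosines. In Foxj3, 192 of the 222 body cytosines lay in 1 CpG island at 0.86%, and in Foxq1 all 216 lay in 1 island. Neither gene had a compared cytosine in its window, so these levels are mostly those of an island and not of a whole body. Foxk1 thus ran from almost unmethylated at its start to over 80% in its body, whereas Foxc2 was low in both.

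**Figure D1:**
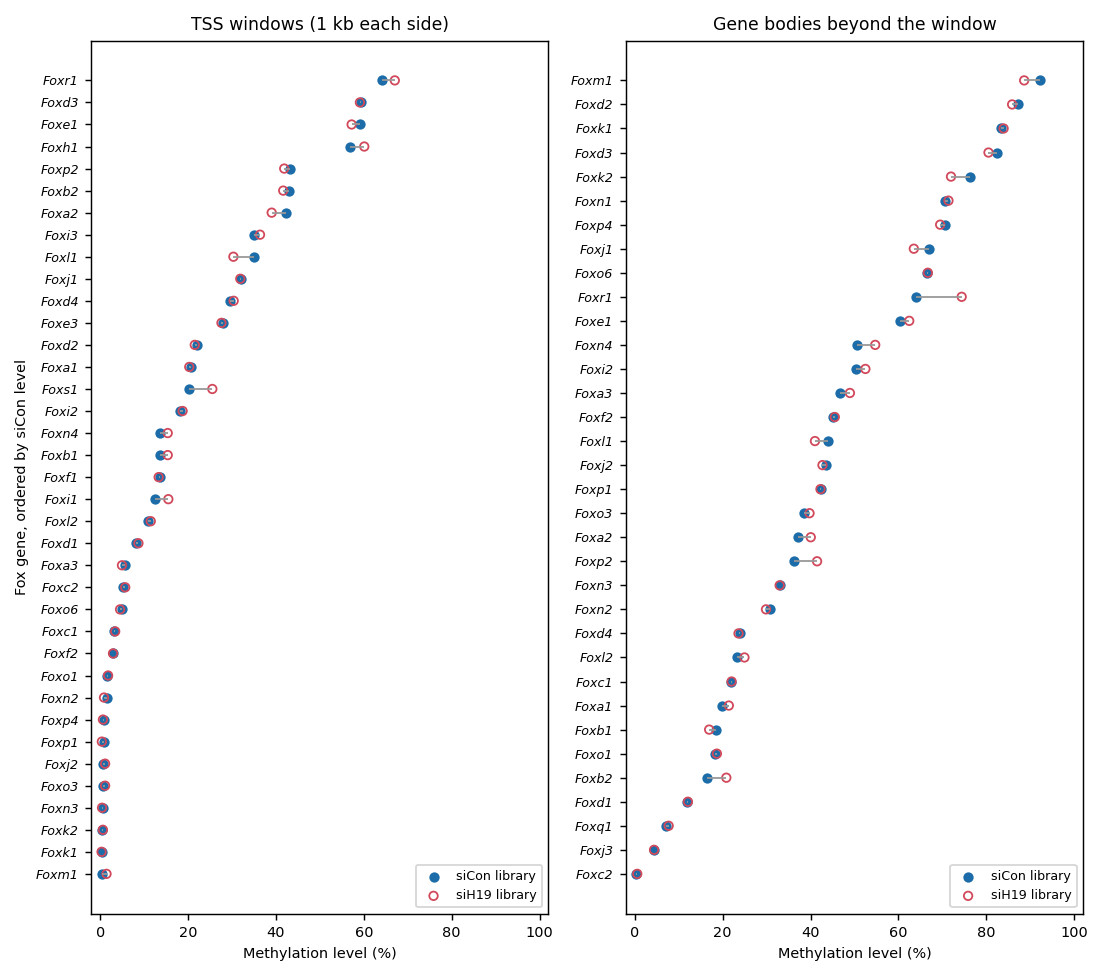
Methylation level (%) of Fox genes in the TSS window (left, 37 of 38 genes drawn) and in the gene body beyond it (right, 34 of 35), ordered by the siCon level, with siCon as filled and siH19 as open circles. Windows run from 0.45% to 64.0% in siCon, bodies from 0.35% to 92.3%, and the libraries lie within 5 points of each other in 36 windows and 32 bodies drawn.

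The next question was whether the siH19 library differed from the siCon library at the starts of Fox genes. It did so at none of the 38 windows by the Cochran-Mantel-Haenszel test stratified by cytosine, adjusted over all windows, at an adjusted p under 0.05. The background was 8.06% of all windows at that threshold. With a minimum difference of 10 points, which a call also needed, 0 windows were called, against 0.213% of all windows. An unadjusted p under 0.05 was reached by 7 of the 38, or 18.4%, against 22.4% of all windows. By a quasi-binomial test that takes cytosines as the units 0 passed, against 2.32% of all windows. The median difference was -0.080 points over the Fox windows and 0.084 over all windows. The sign of the Fox median turned in 4 of 7 alternatives, so it gives no direction. Differences are siH19 minus siCon in percentage points, with 95% intervals that cover counting error only.

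Single windows moved by a few points at most. Foxs1 had the highest difference, from 20.3% to 25.5%, or 5.27 points (1.26 to 9.28), and Foxh1, a partner of Smad proteins in nodal signalling, had 3.30 points (0.32 to 6.29). Foxr1 had 3.01 points (-3.14 to 9.16). At the other end Foxl1, a factor of gut mesenchyme, went from 35.0% to 30.3%, or -4.65 points (-7.94 to -1.36), with an adjusted p of 0.0801 by the Cochran-Mantel-Haenszel test. Foxa2 came next with -3.36 and Foxe1 with -1.98 points (-5.20 to 1.25). None of these passed the adjusted threshold.

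The listed members had small differences at their starts. Foxa1 went from 20.7% to 20.3% (-0.47 points, -3.33 to 2.39) and Foxa3, a liver factor, from 5.58% to 4.97% (-0.61 points, -1.56 to 0.33). Foxc1 differed by 0.27 points (-0.23 to 0.77) and Foxc2 by 0.57 (-0.33 to 1.47). Foxd3 differed by -0.17 points (-2.84 to 2.50) and Foxf1 by -0.24 (-1.24 to 0.75). Foxk1 differed by -0.16 points (-0.45 to 0.12), Foxo1 by 0.17 (-0.33 to 0.67) and Foxo3 by 0.47 (0.10 to 0.84). For these 9 windows the intervals leave out differences above 3 points in either direction, except that of Foxa1, which reaches -3.33.

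The Foxa2 window rested on unevenly read cytosines. Its 28 cytosines had between 9 and 43 reads in siCon and between 5 and 26 in siH19, and 11 of them had 5 reads in siH19. The siCon level was 42.4% and the siH19 level 39.0%, which gives -3.36 points (-8.67 to 1.95), with an adjusted p of 0.502 by the Cochran-Mantel-Haenszel test. The interval spans 0, so no difference was detectable at this depth, and one as low as -8.67 points lies within it. On reads summed over the window the shares were 40.0% (Wilson interval 36.3% to 43.8%) and 40.4% (35.8% to 45.1%), and the sign of the difference turned to 0.41 points higher. Foxa2 was ranked 37 of 38 from the highest difference.

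In gene bodies 1 of 35 Fox genes passed an adjusted p under 0.05, with 1.11% of all bodies doing so, and 0 were called at 10 points, against 0.162%. The gene was Foxb2, a factor of the developing brain, in chr19:16872319-16872804 over 53 cytosines. It went from 16.5% to 20.8%, or 4.35 points (1.96 to 6.75), with an adjusted p of 0.0464 by the Cochran-Mantel-Haenszel test and 0.224 by the quasi-binomial test, which 0.118% of all bodies passed. The Foxb2 window went the other way, from 43.0% to 41.7% (-3.89 to 1.24). The Foxb2 body was therefore higher in siH19 by the first test and not by the second. Unadjusted p under 0.05 was found in 8 Fox bodies, or 22.9%, against 13.0% of all bodies.

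Other bodies were spread around 0. With at least 10 cytosines, Foxp2 had the highest difference, 5.16 points (1.38 to 8.94), and Foxn4 had 4.09 (0.84 to 7.35). The lowest were Foxk2 with -4.29 (-12.1 to 3.57), Foxj1, a factor for motile cilia, with -3.36 (-9.13 to 2.41), and Foxl1 with -3.02 (-9.93 to 3.88). Of the listed members, Foxa1 had 1.58 points (0.030 to 3.13), Foxa3 2.33 (-1.87 to 6.53), Foxc1 0.10 (-0.35 to 0.55) and Foxc2 0.22 (-0.044 to 0.49). Foxd3 had -1.92 points (-6.95 to 3.12), Foxk1 0.68 (-0.98 to 2.34), Foxo1 0.33 (-0.60 to 1.26) and Foxo3 1.36 (0.34 to 2.39). The median over the Fox bodies was 0.28 points, and over all bodies 0.18.

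**Figure D2:**
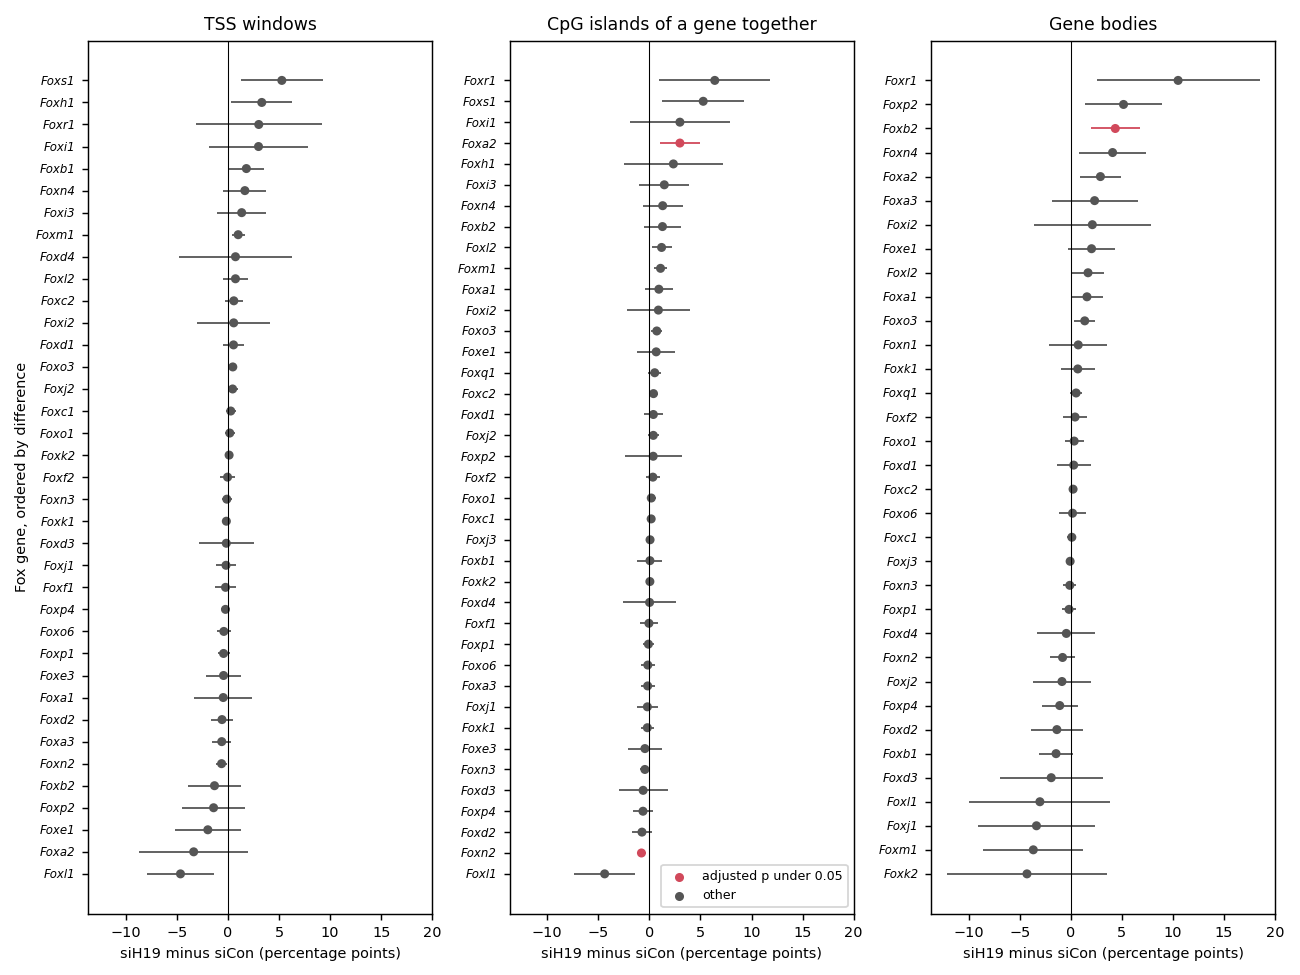
Difference between the libraries (siH19 minus siCon, percentage points) for Fox genes in TSS windows (37 of 38 drawn), in all CpG islands of a gene together (39 of 40), and in gene bodies (34 of 35), with 95% intervals of the counting error as lines. Red points passed an adjusted p under 0.05, which were Foxa2 and Foxn2 among islands and Foxb2 among bodies, and no window did.

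CpG islands were tested next. Of the 87 Fox islands, 1 passed an adjusted p under 0.05, against 4.63% of all islands (2.96% higher and 1.67% lower in siH19), and 0 were called at 10 points, against 0.769%. An unadjusted p under 0.05 was found in 16 islands, or 18.4%, against 18.1% of all islands. The island that passed the adjusted threshold was in the last exon of Foxa2, chr2:148043820-148044949, and ranked 5 of 87 from the highest difference. It lies for the most part in the coding sequence and reaches into the intron before it. Its 78 cytosines stood at 43.5% in siCon and 48.8% in siH19, with 2714 and 2727 reads. The difference was 5.31 points (2.76 to 7.86), with a p of 5.84e-05 and an adjusted p of 0.00483 by the Cochran-Mantel-Haenszel test. By the quasi-binomial test the p was 0.000782 and the adjusted p 0.0748, so the call is lost there, where 0.784% of all islands passed. Foxa2 was picked by the study from these same libraries, so this island is not independent evidence of a change.

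The other tested island of Foxa2, chr2:148045152-148047143, covers both annotated starts of the gene. Its 53 cytosines stood at 29.8% and 29.0%, or -0.80 points (-3.71 to 2.11). Neither the window nor the island at the start of Foxa2 gave a detectable difference, and the one that passed lay in the last exon. Over both islands Foxa2 went from 38.3% to 41.3%, or 2.99 points (1.06 to 4.92), with an adjusted p of 0.0411 by the Cochran-Mantel-Haenszel test. The body of Foxa2 went from 37.2% to 40.1%, or 2.90 points (0.92 to 4.88), with an adjusted p of 0.141 by the same test. The result over both islands is lost in 6 of 9 alternatives, among them the quasi-binomial test, with an adjusted p of 0.101, and under a 10-read minimum, with 0.0579. The body passes in 1 of 9 alternatives, with the strands of a CpG summed, at an adjusted p of 0.0377 by the Cochran-Mantel-Haenszel test. Reads summed over the body gave 1.28 points and 0.413 as adjusted p by Fisher's exact test, and by the quasi-binomial test its adjusted p was 0.463.

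With all islands of a gene pooled into 1 region, 2 of 40 Fox genes passed an adjusted p under 0.05, with 7.91% of all genes doing so (5.31% higher and 2.61% lower), and 0 were called at 10 points, against 0.239%. By the quasi-binomial test 0 passed, against 2.1% of all genes. Beside Foxa2 this was Foxn2, which went from 6.52% to 5.74%, or -0.78 points (-1.26 to -0.29), with an adjusted p of 0.0392 by the Cochran-Mantel-Haenszel test. The highest differences were Foxr1 with 6.40 points (0.97 to 11.8), Foxs1 with 5.27, by the same cytosines as its window, and Foxi1 with 2.99 (-1.90 to 7.88). The lowest were Foxl1 with -4.38 (-7.39 to -1.37), Foxn2, and Foxd2 with -0.73 (-1.70 to 0.24). The highest siCon levels were Foxr1 at 66.7%, Foxd3 at 63.1% and Foxe1 at 60.0%, and the lowest Foxm1 at 0.39%, Foxk2 at 0.48% and Foxj2 at 0.91%.

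Of the listed members, Foxa1 went from 20.3% to 21.2% over its islands (0.93 points, -0.47 to 2.33) and Foxa3 from 3.92% to 3.75% (-0.17, -0.86 to 0.52). Foxc1 had 0.17 points (-0.16 to 0.51), Foxc2 0.40 (-0.040 to 0.84), Foxd3 -0.62 (-3.02 to 1.78) and Foxf1 -0.047 (-0.92 to 0.82). Foxk1 had -0.20 points (-0.82 to 0.41), Foxo1 0.18 (-0.23 to 0.60) and Foxo3 0.72 (0.19 to 1.26). None of these 9 genes passed an adjusted p under 0.05.

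Of single islands with at least 10 cytosines, the highest difference was 10.8 points (2.89 to 18.8), from 64.3% to 75.1% over 12 cytosines in chr6:98948538-98948769 of Foxp1. An island upstream of Foxc2, chr8:121114578-121115759, went from 26.9% to 32.7%, or 5.80 points (1.46 to 10.1), while the island over its start and coding sequence stood at 0.61% and 0.48%. In Foxb2 the island upstream of the start went from 43.9% to 35.2%, or -8.70 points (-15.2 to -2.17). Adjusted p-values of these 3 islands by the Cochran-Mantel-Haenszel test were 0.120, 0.129 and 0.138. Within Foxo3 the islands ran from 7.54% at the start, over 294 cytosines, to 74.9%, 96.1% and 100% in 3 intragenic islands of 10, 24 and 6 cytosines. The differences of these 4 islands were 0.69, 2.14, 0.053 and 0 points.

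The last exon of Foxa2 was then examined by strand, fragment and position. On the plus strand, 40 cytosines went from 40.5% to 47.7%, or 7.27 points (4.07 to 10.5), with 29 higher and 10 lower. On the minus strand, 38 cytosines went from 48.5% to 50.5%, or 2.05 points (-2.17 to 6.27), with 22 higher and 16 lower. The difference between the strands was not tested. Over both strands 51 of the 78 cytosines were higher in siH19, 26 lower and 1 equal. Without the strongly changed cytosines the difference was 5.73 points (3.14 to 8.31).

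Cut at TCGA and CCGG, 9 restriction fragments of the island held compared cytosines, 6 of them higher in siH19 and 3 lower. Stretches of the island between them held none. The fragment with most cytosines, shown above, went from 42.4% to 50.8%, or 8.42 points (3.58 to 13.3). The highest of those with at least 10 cytosines went from 37.6% to 46.1%, or 8.47 points (3.15 to 13.8). The lowest of those with at least 10 cytosines went from 38.2% to 33.1%, or -5.16 points (-11.9 to 1.63). An 8-cytosine fragment went from 51.9% to 62.3%, or 10.4 points (2.05 to 18.8). On the low side, a 4-cytosine fragment had -8.97 points (-27.0 to 9.04) and 1 cytosine alone had -29.9 (-75.0 to 15.3). Leaving out each fragment in turn gave differences from 3.96 to 6.86 points and an unadjusted p of at most 0.0110 by the Cochran-Mantel-Haenszel test. That p was without the fragment with most cytosines, where the quasi-binomial test gave an unadjusted 0.0436. The island was examined because it had passed in these libraries, so these values describe it and are no further test. No single fragment set the sign of the island.

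**Figure D3:**
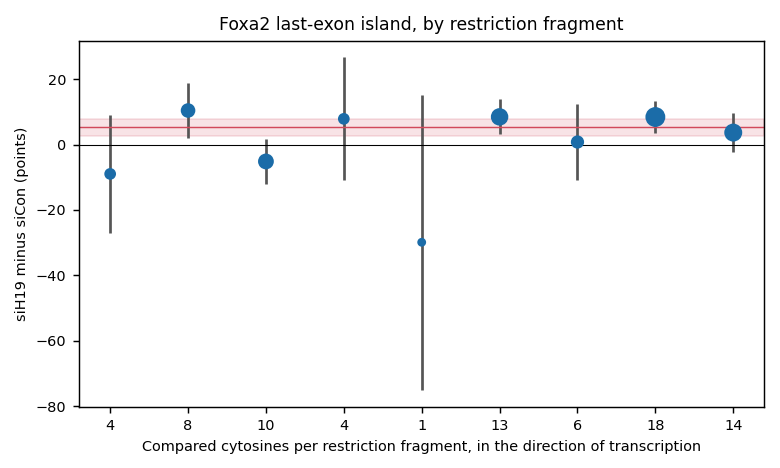
Difference between the libraries (siH19 minus siCon, points) in each of the 9 restriction fragments of the Foxa2 last-exon island that held compared cytosines. Fragments run from the start of the gene towards its end, with 95% intervals of the counting error and point size by number of compared cytosines. The red line and band mark the whole island at 5.31 points (2.76 to 7.86), and 6 of 9 fragments lie above 0.

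By position from the start, the bin from 2500 to 3000 bp went from 40.2% to 47.8%, or 7.54 points (4.27 to 10.8), over 42 cytosines. In the same island, the bin from 2000 to 2500 bp had 0.80 points (-4.06 to 5.67) over 27 cytosines, 14 higher and 13 lower. That from 3000 to 3500 bp had 3.38 points (-3.74 to 10.5) over 9. The bin from 1500 to 2000 bp, in the intron, went from 25.1% to 21.5%, or -3.65 points (-7.20 to -0.10), over 23 cytosines. By annotation, the 75 coding cytosines of Foxa2 differed by 5.60 points (3.05 to 8.14) and the 46 intronic ones by -2.33 (-5.31 to 0.65). The coding and intronic differences of Foxa2 were opposite in sign, and the intron interval spans 0.

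**Figure D4:**
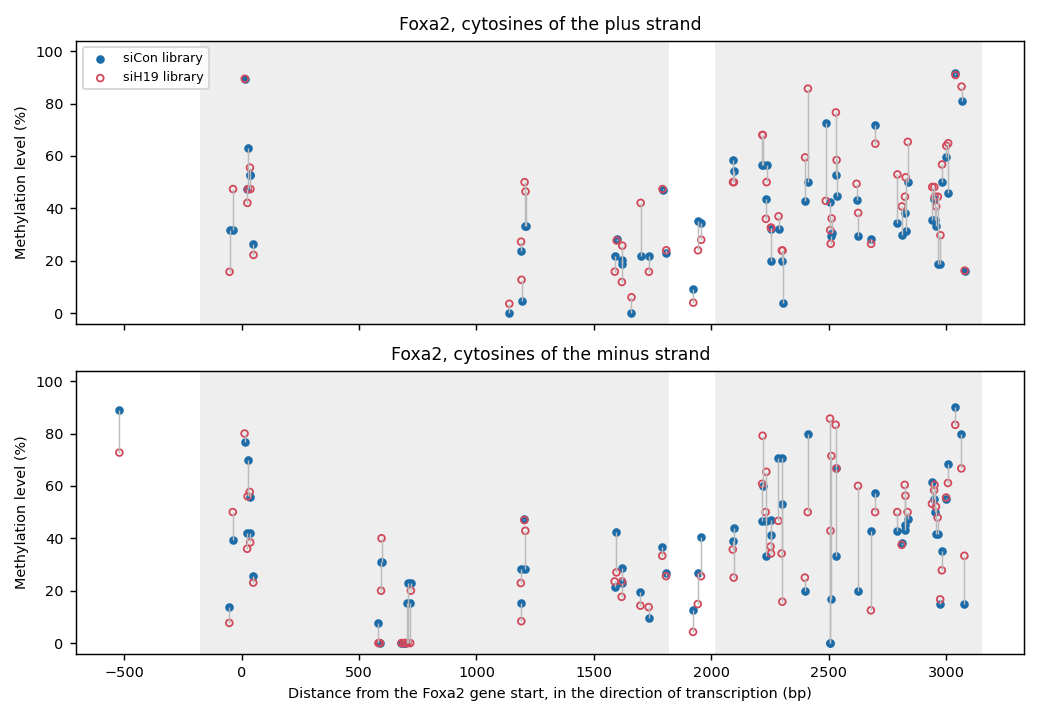
Methylation level (%) of each compared cytosine of Foxa2 against its distance from the gene start (bp), plus strand above and minus strand below, with siCon filled, siH19 open and the 2 CpG islands shaded. In the island of the last exon 51 of 78 cytosines are higher in siH19.

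Against the rest of the family, the coding sequence of Foxa2 had the highest difference of 37 Fox genes with at least 5 coding cytosines. Coding differences ran from -4.65 points in Foxl1 to 5.60 in Foxa2, with a median of 0.16, and 23 were higher and 14 lower. Next below Foxa2 came Foxs1 with 5.27 points (1.26 to 9.28) and Foxh1 with 3.78 (0.093 to 7.47), whose intervals overlap that of Foxa2. Foxa1, the nearest relative, had 3.57 points (0.36 to 6.78) over 48 coding cytosines and ranked 4. The coding sequence of all other Fox genes together differed by 0.35 points (0.058 to 0.63). These ranks are a description, since Foxa2 had been chosen on these libraries and the coding split was not among the planned comparisons. In the planned regions Foxa2 ranked 37 of 38 among windows, 4 of 40 over islands together and 5 of 35 among bodies.

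Single cytosines were considered last. A strongly changed cytosine had a Fisher's exact p under 0.05 and a difference of at least 33 points. In the Fox genes 61 of 6971 cytosines were strongly changed, or 0.875%, against 0.956% of all cytosines. Of these 36 were higher in siH19, with 0.5% of all cytosines higher, and 25 lower, with 0.456% lower. After adjustment over all cytosines 0 Fox cytosines had an adjusted p under 0.05 by Fisher's exact test, against 113 across the autosomes, or 0.00629%. An unadjusted p under 0.05 was found for 202, or 2.90%, against 2.48% of all cytosines. The share of Fox cytosines that were strongly changed was close to that of the genome.

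The opposite strand of a CpG gives a second reading of the same site. Of the 54 strongly changed Fox cytosines whose partner was compared, 27 had a partner that moved in the same direction. Over the 3024 Fox CpGs with both strands, 879 moved the same way on both strands and 866 in opposite ways. At a Fisher's exact p under 0.05 the strands of a CpG differed within the siCon library at 3.54% of CpGs and within siH19 at 3.14%, and the libraries differed at 2.68% on the plus strand and 3.47% on the minus strand. The mean absolute gap was 6.66 and 6.05 points between strands and 6.09 and 6.20 points between libraries. At single Fox cytosines the libraries were thus about as far apart as the strands of 1 library.

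Foxa2 held 4 strongly changed cytosines among 138, or 2.90%, against 0.956% of all cytosines and 0.834% of the other Fox cytosines. Such a share was not particular to Foxa2. It was higher in Foxl1 (5.06%), Foxs1 (4.35%), Foxr1 (3.45%), Foxa1 (3.05%) and Foxl2 (3.04%), in Foxs1 and Foxr1 by 1 cytosine each. These shares were not tested against each other, and the study had picked Foxa2 from these libraries. All 4 cytosines of Foxa2 lay in the coding sequence of the last exon. At chr2:148044464 on the minus strand 0 of 6 siCon reads and 6 of 7 siH19 reads were methylated, with a p of 0.00466 by Fisher's exact test. At chr2:148044558 on the plus strand 4 of 8 and 30 of 35 reads were methylated, from 50% (21.5% to 78.5%) to 85.7% (70.6% to 93.7%). At chr2:148044667 and chr2:148044670 on the minus strand the count went from 9 of 17 to 6 of 38 and from 12 of 17 to 13 of 38. These 4 split evenly, 2 higher and 2 lower, and 0 of 4 had a partner strand that moved the same way. In Foxa2 the mean absolute gap was 12.9 and 11.2 points between strands and 9.43 and 13.7 points between libraries, over 61 CpGs.

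The lowest p-values of the family lay elsewhere. In Foxl2, an ovarian factor, the cytosine at chr9:98956156 on the minus strand went from 6 of 6 to 0 of 20 reads, with a p of 4.34e-06 and an adjusted p of 0.0586 by Fisher's exact test. Its partner went from 0% to 28.6%, the opposite way. The next lower ones were chr8:121085090 in Foxf1 and chr9:98955752 in Foxl2, the latter from 9 of 19 to 4 of 44 reads. The higher ones were chr6:70956780 in Foxi3, from 4 of 30 to 34 of 62 reads, chr12:57542564 in Foxa1, from 0 of 25 to 8 of 18, and chr12:99494829 in Foxn3, from 0 of 7 to 10 of 12. Of these only the Foxf1 and Foxn3 cytosines had a partner moving the same way.

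The Foxf1 site was 1 of 2 Fox CpGs that were strongly changed on both strands. The share of such CpGs over all autosomes was not computed, so this count has no background. The coding stretch around it, chr8:121085060-121085121 on the plus strand, is shown because both strands give the same reading, with compared CpGs in capitals and the site in the middle.
Foxf1 coding stretch: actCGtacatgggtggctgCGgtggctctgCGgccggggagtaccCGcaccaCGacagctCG
The plus strand went from 41 of 43 reads (95.3%, 84.5% to 98.7%) to 17 of 28 (60.7%, 42.4% to 76.4%). The minus strand, at 121085091, went from 35 of 44 (79.5%, 65.5% to 88.8%) to 14 of 31 (45.2%, 29.2% to 62.2%). Both strands were lower in siH19, with Fisher's exact p of 0.000357 and 0.00303 and adjusted p of 0.474 and 1. The other CpG was chr9:98957191 in an untranslated exon of Foxl2, which went from 7 of 17 to 2 of 30 reads on the plus strand and from 4 of 10 to 1 of 19 on the minus strand. The sites of Foxf1 and Foxl2 were chosen after their values were seen.

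Genes that act with the family were taken from lists. Of 12 endoderm and liver factors that work with Foxa2, 10 had a window tested and 2 were higher in siH19 at an adjusted p under 0.05, against 5.16% of all windows higher. These were Prox1, from 11.5% to 15.9% or 4.39 points (1.87 to 6.91), and Sox17, from 45.2% to 52.5% or 7.31 points (2.78 to 11.8). Among bodies 1 of 12 was higher, against 0.788% of all bodies. This was Gata6, from 39.4% to 43.1% or 3.63 points (2.17 to 5.09), and it was also the 1 of 12 that was higher over its islands, from 38.6% to 42.1%, against 5.31% of all genes higher. None was called at 10 points, against 0.213% of all windows, 0.162% of all bodies and 0.239% of all island totals. The median differences were -0.20 points for windows and 0.51 for bodies.

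In the chain from insulin receptor through Akt to Foxo, 0 of 13 windows and 0 of 14 bodies passed an adjusted p under 0.05 by the Cochran-Mantel-Haenszel test, against 8.06% of all windows and 1.11% of all bodies. Over islands 1 of 14 was lower, Pdpk1, the kinase that activates Akt, from 1.04% to 0.44%, against 2.61% of all genes lower. Of 12 Foxo targets in muscle, 1 of 10 windows was lower, Map1lc3b, an autophagosome protein, from 6.45% to 4.99% or -1.45 points (-2.40 to -0.51), against 2.89% of all windows lower. Its island total consists of the same 56 cytosines. Of the bodies of such targets 0 of 11 passed, against 1.11% of all bodies. The median level of the windows was 0.70% in the first list and 2.84% in the second.

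The plan was to read markers as window levels only, since DNA methylation is no measure of expression. Tests, and values of bodies and islands, were added to that plan. Of 10 myogenic markers 6 had a window tested, from 3.79% in Des to 74.0% in Myog in siCon. Of these windows 0 passed an adjusted p under 0.05 by the Cochran-Mantel-Haenszel test, against 8.06% of all windows. Of 7 bodies 1 was higher in siH19, against 0.788% of all bodies. It was that of Acta1, skeletal muscle actin, from 29.1% to 38.4% or 9.27 points (6.17 to 12.4). Over islands 2 of 7 were higher, against 5.31% of all genes. These were Acta1, by the same 62 cytosines as in its body, and Myod1, from 31.02% to 35.5%. Other myogenic markers were lower in siH19 without passing. The Cdh15 body had -7.86 points (-12.3 to -3.46), with an adjusted p of 0.0737 by the Cochran-Mantel-Haenszel test. The Myf5 window had -9.11 points (-21.8 to 3.54) and the Myf5 body 7.58 (-2.75 to 17.9). Median differences of the list were 2.37 points for windows, 4.91 for bodies and 1.27 for islands. Windows of hepatocyte and endoderm markers were tested in 2 of 6, at 37.4% and 59.2% in siCon, of pluripotent markers in 3 of 4, from 47.5% to 76.7%, and of neural markers in 4 of 4, from 0.75% to 23.6%. In these 3 lists no window, gene body or island total passed an adjusted p under 0.05 by the Cochran-Mantel-Haenszel test. The shares over all genes were 8.06% of windows, 1.11% of bodies and 7.91% of island totals. With so few regions tested, 0 passing is close to those shares.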

How the data were processed

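Reduced representation bisulfite libraries of siCon and siH19 myotubes were taken as 1 library per group, by the sample labels. The authors aligned reads with Bismark in non-directional mode and trimmed filled-in nucleotides, and the labels name bcl2fastq 1.8.4 and mm10. The deposited files held a text field with methylated and total read counts per CpG cytosine and strand, and a score, which per the deposited values was the methylated fraction on a scale of 1000 and matched the counts in 100% of entries. Duplicate removal was not given in the sources used here. All 5779755 autosomal positions fell on CpG cytosines of GRCm38, so that build was used, with GENCODE vM21 genes.

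Cytosines with at least 5 reads per library and outside CCGG and TCGA were compared by Fisher's exact test. Regions with at least 5 cytosines were compared by a Cochran-Mantel-Haenszel test stratified by cytosine, adjusted by Benjamini-Hochberg over all autosomal regions of a kind, and called at 10 points (Python 3.11.15, scipy 1.17.1, numba 0.67.0). Both tests are two-sided. Islands were computed with a minimum of 200 bp, 50% GC and an observed to expected ratio of 0.6. The tests were tried on simulated data. Cytosines on the same read are not independent, so regional p-values are too small and intervals too narrow, and intervals cover counting error only.

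Named genes were the 10 listed members, genes passing a call, and in each compartment the 3 highest and lowest levels and the 3 largest differences each way with at least 10 cytosines. Single cytosines were all strongly changed ones of Foxa2 and the 3 lowest p-values each way. Members and lists were chosen with earlier results of these data known. In addition, 1 gene of the family entered all counts and tests and is not reported here by name.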

Additional observations from a re-analysis of the deposited data

How the results depend on the processing

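No paired analysis was possible because each group had 1 library, and for the same reason no replicate could be left out. Leaving out each restriction fragment and the strongly changed cytosines of the Foxa2 last-exon island was chosen after seeing the data, and gave 3.96 to 6.86 points with unadjusted p. Across all other settings that island ran from 3.95 to 6.24 points and stayed past the threshold except by the quasi-binomial test, where 5.31 points had an adjusted p of 0.0748. Foxa2 over both islands fell below the threshold with 10 reads (2.90 points), at equal depth (2.91), on summed reads (1.41), by the quasi-binomial test (2.99), as an unweighted mean (2.92) and with stricter islands (2.24). The Foxa2 body passed with strands summed (3.55 points) and in none of the other 8 settings, between 1.28 points on summed reads and 3.95 unweighted. The Foxa2 window turned to 0.41 points on summed reads, where the weight of each cytosine differs between libraries by construction. The 10-read minimum and the 500-bp window kept the same 16 cytosines of that window, so they are 1 check.

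Strongly changed Fox cytosines numbered 127 with CCGG and TCGA cytosines included, 28 with strands summed, 15 at 50 points and 0 by adjusted p, against 61. On summed reads 1 window (Foxh1, 16.9 points against 3.30), 1 island (of Foxn3, 24.9 against 11.8) and 6 bodies were called, and 1 island, that of the Foxa2 last exon, at 5 points, against 0. The median of Fox windows, -0.080 points, turned positive with 10 reads (0.057), without repeats (0.042), in 500-bp windows (0.079) and with CCGG and TCGA cytosines. With the latter the median differences were 0.17 points for windows, 0.53 for islands and 0.77 for bodies. The island median was 0.081 at equal depth, 0.16 without repeats, 0.10 unweighted and 0.17 with stricter islands. Beyond the composition of summed reads, the cause of these changes was not tested. Single cytosines rested on a median of 26 reads per library, which limits what could be detected at 1 site.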
